A study of Mus musculus with 8 samples.

Results

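The sites described here are 29825 small protected DNA structures of wild-type (WT) condensing spermatids that stood high in the WT library and had no counterpart close by in the library without H2A.L.2. They were chosen from 5291731 autosomal small-structure summits of the WT list. A site had to have a summit value, the fragment coverage at its highest point, at or above the 90% quantile of that list, which was 884, and no summit of the H2A.L.2-less list within 73 bp. Of the 531149 WT summits that reached this height, 29825 or 5.62% met the second condition (95% Wilson interval 5.55% to 5.68%). They are called unmatched summits below. They were set beside 447220 equally high WT summits with a H2A.L.2-less summit within 40 bp, called matched summits, and the remaining 54104 lay between these limits. Both conditions used the 2 small-structure lists, so the share itself, the heights and the distances between those lists are descriptions.

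During spermiogenesis most histones of the haploid cell are removed, first in favour of transition proteins and then of protamines, which pack the sperm genome. H2A.L.2 is a testis-specific histone H2A variant of the mouse that appears late in this process, and nucleosomes that carry it wrap DNA less tightly and are more open to transition proteins. Micrococcal nuclease (MNase) digests DNA that no protein shields, so the size of a surviving fragment reflects the size of the protecting particle.

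The H2A.L.2-less and the WT groups each had 1 library of spermatocyte nucleosomes, 1 of round spermatid nucleosomes, 1 of condensing spermatid nucleosomes of about 130 to 170 bp and 1 of condensing spermatid small structures of about 40 to 80 bp. The cells were enriched fractions of mouse testis, and the labels give no strain, age, number of animals or allele for the loss of H2A.L.2. Each deposited list gives called positions on the mm9 build, each with a summit, its value and a fuzziness score. With 1 library per group, a difference between genotypes cannot be told apart from a difference between libraries, and no test across libraries was made. Spreads are SDs over the 19 autosomes and so reflect differences between chromosomes rather than between mice. Intervals cover counting error only.

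The H2A.L.2-less small-structure list was the shorter and the lower of the pair, with 4047666 autosomal summits and a median summit value of 160, against 5291731 and 492 in WT. Its lowest values (first percentile) stood at 96, or 0.600 times its own median. The height limit of 884 was 1.80 times the WT median. The depth of single libraries is unknown. In all 8 lists positions were 140 bp wide and no summits were closer than 100 bp.

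The share of 5.62% was below most of the shares set beside it here. Over WT small structures of all heights, 34.1% had no H2A.L.2-less summit within 73 bp. In the other direction, 4.44% of the highest 10% of H2A.L.2-less summits, and 14.3% of those of all heights, had no WT summit within 73 bp. The same share in the highest 10% of WT nucleosome summits, with H2A.L.2-less nucleosomes of that stage as partners, was 11.6% in spermatocytes, 21.0% in round spermatids and 33.7% in condensing spermatids. The share for high small structures was thus below those for high nucleosomes of the 3 stages in these libraries. The height limits were unlike, at 1.80 times the median in the WT small-structure list and 1.32 to 1.45 times in the WT nucleosome lists. At the edge of the selection, 653 unmatched summits had a value of exactly 884, and 906 summits with no partner within 73 bp lay just outside at 880. At 80 bp from the nearest H2A.L.2-less summit there were 9038 unmatched summits, while 14231 equally high summits lay just outside at 70 bp.

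The distances do not settle whether these sites were missing. The rule used the same distances, and a H2A.L.2-less summit nearby need not be the counterpart of the site. The nearest H2A.L.2-less summit was 95 bp away in the median, from 75 to 2540 bp, and for 28000 of the 29825 unmatched summits (93.9%) it was within 140 bp, the width of 1 called position. Another 1450 (4.86%) had it over 140 and up to 200 bp away, and 375 (1.26%) over 200 bp away. The nearest summit was more than 500 bp away at 29 sites and more than 1000 bp away at 6 sites. Most unmatched summits thus had a H2A.L.2-less small structure beside them, and a minority of 1825 (6.12%, interval 5.85% to 6.40%) had none within 140 bp. That is 0.344% of all high WT summits, against 22.6% of WT summits of all heights with none within 140 bp.

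**Figure D1:**
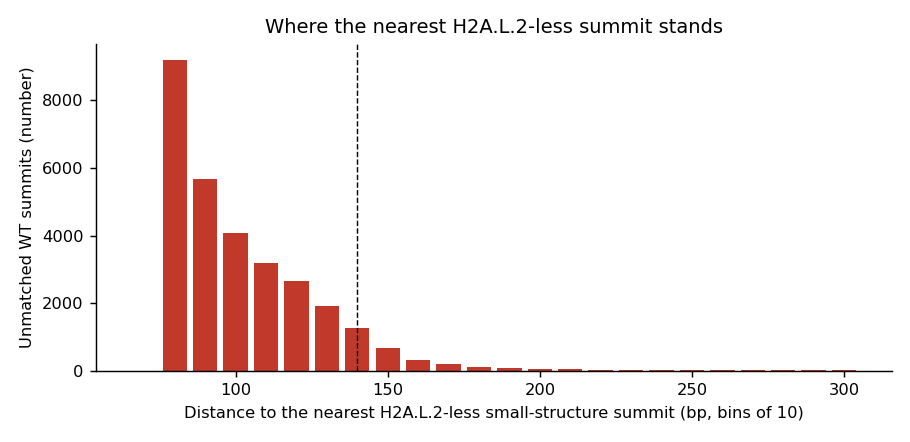
Number of unmatched WT summits by the distance to the nearest H2A.L.2-less small-structure summit, in bins of 10 bp from 80 to 300 bp, with a dashed line at 140 bp. The numbers drop steeply with distance, and 28000 of the 29825 unmatched summits lie at or under 140 bp.

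The H2A.L.2-less summits took several arrangements around an unmatched site. At 10917 sites (36.6%) one stood within 140 bp on each side, with a median of 220 bp between the pair. At 17083 sites (57.3%) there was one on a single side. Among the 28000 sites with a partner within 140 bp, that partner was itself within 40 bp of another WT summit at 13606 (48.6%), so the neighbour of the site was present in both libraries. At 14394 sites (51.4%) the partner had no WT summit within 40 bp, and at 10769 (38.5%) none within 73 bp. Within 150 bp of an unmatched summit there were 1.41 H2A.L.2-less and 1.95 WT summits on average, the site included, a ratio of 0.721 ± 0.00933 (SD over 19 autosomes). Around matched summits the numbers were 1.66 and 1.70, a ratio of 0.976 ± 0.00593. The zone free of H2A.L.2-less summits was set by the rule and lowers the first ratio. The partner that each matched summit has by definition raises the second.

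The sites with the highest summit values below the top 0.1% of the list are examples from single loci beside still higher summits. The unmatched summit at chr6:114493331-114493471 had a value of 2628, and flanking WT summits of 3232 at -120 bp and 3392 at 140 bp. The H2A.L.2-less list held both flanks at the same coordinates, with values of 888 and 972, but not the summit between them. On chromosome 15, the unmatched summit at chr15:91738451-91738591 had a value of 2624, between WT summits of 8440 at -240 bp and 4216 at 140 bp. The H2A.L.2-less summits there stood at -250 bp with 3684 and at 130 bp with 1772. The site at chr1:87539141-87539281, with a value of 2616, had a H2A.L.2-less summit at 90 bp. Its value was 160, equal to the median of the H2A.L.2-less list, and its fuzziness was 74.4. The other 2 sites named by this rule were chr4:146774991-146775131, with a value of 2624, and chr9:3026151-3026291, with 2608. In all 5 named sites, both flanking WT summits had a H2A.L.2-less summit within 15 bp. At least 1 of the flanks was higher than the site and lay in the top 0.1% itself, with a value above 2640. The named sites are thus not typical. Over all unmatched summits both neighbours were matched at 56.5%, and the nearest WT neighbour was at least as high as the site at 28.5%.

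Distance curves gave the arrangement over all sites, but the selection shapes the H2A.L.2-less curves near the summit. No such summit can lie up to 73 bp from an unmatched site. Each matched site has one within 40 bp, and gaps of at least 100 bp then keep others away. The contrast between these 2 curves at 80 and 100 bp is thus a description. Summits just outside the excluded zone keep others at least 100 bp away, so the rule also shapes the unmatched curve near 170 bp. The density of H2A.L.2-less small structures around unmatched summits, relative to that 800 to 1000 bp away, was 3.65 at 80 bp, 1.90 at 100 bp and 1.54 at 140 bp, and dropped to 0.652 at 170 bp. Around matched summits it was 0.165 at 80 bp, 0.547 at 100 bp, 1.64 at 140 bp and 1.20 at 170 bp. WT small structures also stood closer to unmatched than to matched summits. Their relative density was 1.72 around unmatched and 0.908 around matched summits at 100 bp, and 2.68 and 1.83 at 120 bp. At 180 bp the order was the other way, 0.993 against 1.36. WT distances at even steps of 10 bp were the more frequent, which gives the WT curves their sawtooth shape and limits how finely WT gaps can be read.

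**Figure D2:**
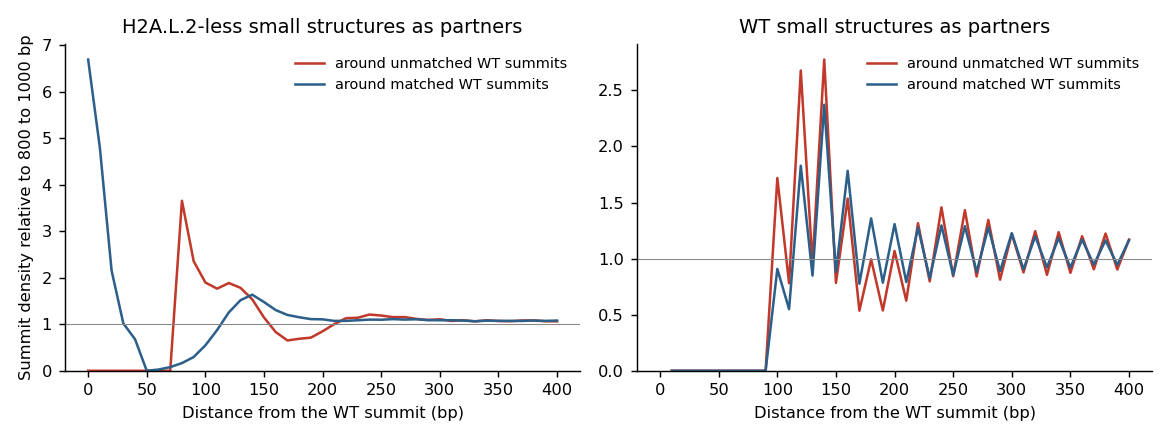
Density of H2A.L.2-less (left) and WT (right) small-structure summits by distance in bp from unmatched (red) and matched (blue) WT summits, relative to the density 800 to 1000 bp away. H2A.L.2-less summits peak at 80 bp around unmatched summits, the first bin outside the zone excluded by the rule, and at 0 bp around matched ones.

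Unmatched summits were broader than matched ones. The fuzziness score, a deposited value that is larger where fragments are spread more widely about a summit, had a median of 56.2 ± 0.270 at unmatched summits and 52.8 ± 0.449 at matched summits (SD over 19 autosomes). The quartiles were 53.8 and 58.3 for unmatched and 49.5 and 55.5 for matched summits. The difference of 3.35 had the same sign on 19 of 19 autosomes, where it ran from 3.14 to 3.87. Breadth was not particular to the unmatched set. The 54104 high summits with the nearest partner 41 to 73 bp away had a median of 55.5, and the 1825 unmatched ones without a partner within 140 bp had 52.7. Of the unmatched summits 84.1% were fuzzier than the median of all WT small structures, which was 52.5, against 52.8% of the matched ones. The H2A.L.2-less summits beside them were broad as well, with a median fuzziness of 55.5 next to unmatched summits and 51.8 at matched ones.

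The share of unmatched summits followed fuzziness through the whole range. Among high WT summits in the lowest of 10 bands of fuzziness, with a median score of 43.8, 1.07% were unmatched (interval 0.989% to 1.16%). In the fifth band, with a median of 52.8, the share was 4.03%, and in the highest band, with a median of 59.2, it was 15.6% (interval 15.3% to 15.9%). Among these high summits the share varied less with height, but the rule cut the range of heights and left that of fuzziness whole. Over WT summits of all heights, 34.1% had no H2A.L.2-less summit within 73 bp, so height and fuzziness are not ranked here. Among the high summits the share was 7.08% in the lowest and 3.48% in the highest of 10 bands of summit value. The median value was 984 for unmatched and 1012 for matched summits. Of the 5284 WT summits in the highest 0.1% of the list, with values above 2640, 175 were unmatched. Within these height bands the difference in fuzziness lay between 2.97 and 4.24.

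**Figure D3:**
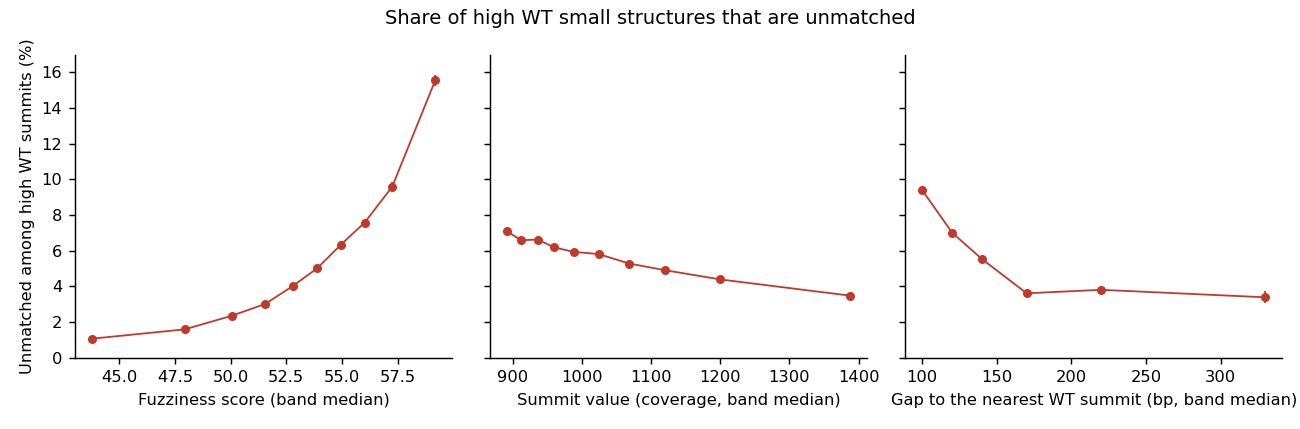
Share of high WT small structures that are unmatched, in percent with 95% Wilson intervals, by band of fuzziness score (left), summit value (middle) and gap to the nearest WT summit in bp (right), each point at its band median. The share rises from 1.07% to 15.6% with fuzziness and is lower at higher and at more isolated summits.

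Unmatched summits were also more crowded than matched ones, though not in every distance class. The next WT summit was 130 ± 5.07 bp away in the median at unmatched and 140 ± 4.21 bp at matched summits, a difference of one step of the coordinate grid. The difference was 0 bp when only H2A.L.2-less summits at or above their lower quartile of summit value were used as partners. The median gap was 140 bp, as at matched summits, at the 18966 unmatched sites with a H2A.L.2-less summit 74 to 100 bp away. It was 120 bp at the 9034 sites beyond 100 and up to 140 bp, and 160 bp at the 1825 farther away. The next WT summit was within 150 bp at 72.3% of unmatched and 57.0% of matched summits, and such a neighbour stood on both sides at 22.5% and 13.00%. The mean of the left and right gap was 170 bp against 190 bp, and lower at unmatched summits on 19 of 19 autosomes. High summits whose neighbour was under 120 bp away were unmatched in 9.39% of cases, against 3.39% where it was 300 bp or further. The nearest WT neighbour had 0.844 times the height of an unmatched summit in the median and 0.709 times that of a matched one. At 28.5% of unmatched and 15.5% of matched summits the neighbour was at least as high as the site, so unmatched summits stood out less from their surroundings.

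Neighbours of unmatched summits mostly had counterparts. Of the 59650 WT summits next to an unmatched one, 74.9% ± 1.35 (SD over 19 autosomes) had a H2A.L.2-less summit within 40 bp, against 69.7% ± 1.06 of those next to matched summits and 57.9% of all WT small structures. Both neighbours were matched at 56.5% of unmatched and 48.8% of matched summits. Where a neighbour was itself among the highest 10%, it was unmatched in 4.30% of 25880 cases next to an unmatched and 7.38% of 289604 cases next to a matched summit. At 1099 unmatched summits (3.68%) a high neighbour was unmatched too, against 4.69% of matched summits. Neighbour and site share the same pair of lists, and with minimum gaps of 100 bp a H2A.L.2-less summit beside the site can be the neighbour's counterpart, so these shares are descriptions.

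Unmatched summits lay where small structures were dense, as high summits in general did. The 100 kb window around them held a median of 453 ± 39.1 WT small structures, against 439 ± 40.6 around matched summits and 319 around all WT small structures. The median was higher at unmatched summits on 19 of 19 autosomes, by 5 to 18 positions. H2A.L.2-less small structures in the same windows numbered 387 ± 46.4 around unmatched and 370 ± 47.8 around matched summits. The log2 ratio of H2A.L.2-less over WT numbers was -0.22 around unmatched and -0.24 around matched summits, so windows of this size were not poorer in H2A.L.2-less positions around unmatched summits. Within 500 bp there were 4.59 H2A.L.2-less and 5.50 WT summits around unmatched sites, a ratio of 0.835 ± 0.0103. Around matched sites there were 4.86 and 5.26, a ratio of 0.923 ± 0.00927. These 500 bp include the zone that the rule keeps free of H2A.L.2-less summits around unmatched sites, and the partner that each matched site must have. Differences of about this size were already present within 150 bp (1.41 and 1.95 against 1.66 and 1.70). The lower ratio within 500 bp therefore does not show that the surroundings beyond were poorer. With matched summits weighted to the same fuzziness, the ratio of WT densities per 100 kb was 0.998 and the log2 difference -0.0058, so neither held at equal fuzziness. Nucleosome densities differed little, the widest gaps being 4 positions per 100 kb in the WT round (330 against 326) and WT condensing lists (235 against 231).

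The sites were spread over the genome. The unmatched share of single autosomes lay between 4.61% on chromosome 13 and 5.97% on chromosome 19. Unmatched summits occurred in 8424 of 24017 windows of 100 kb, and in the 3310 windows with at least 50 high summits the share had a median of 5.77%, with 1.84% and 10.03% at the 5th and 95th percentiles. The window with the most unmatched summits, chromosome 10 from 80700001 to 80800000, had 33 among 358 high summits (9.22%). Chromosome 1 from 90100001 to 90200000 had 31 among 451, where the WT list held 507 summits in all. Chromosome 6 from 47600001 to 47700000 had 30 among 248. The largest shares were 18.6% on chromosome 19 from 46300001 to 46400000 (18 of 97, interval 12.1% to 27.4%), 16.9% on chromosome 4 from 43000001 to 43100000 (11 of 65) and 16.7% on chromosome 18 from 77600001 to 77700000 (10 of 60). None was unmatched in 42 of the 3310 windows, among them chromosome 1 from 34500001 to 34600000, with 62 high summits, which allows a share of up to 5.83% (upper Wilson limit).

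Nucleosome summits of the other 6 libraries, which the rule did not use, stood at unmatched summits less often than at matched ones in each list. In spermatocytes, 27.0% ± 1.74 of unmatched summits had a nucleosome summit of the H2A.L.2-less list within 40 bp, against 31.8% ± 1.71 of matched summits, and 33.3% of all WT small structures. For the WT spermatocyte list the shares were 35.8% ± 1.56 of unmatched and 40.5% ± 1.71 of matched summits, with 38.5% of all. In round spermatids the H2A.L.2-less list gave 20.3% ± 1.34 of unmatched and 24.4% ± 1.35 of matched summits, with 26.2% of all. The WT round spermatid list gave 39.3% ± 1.74 and 44.5% ± 1.29, with 42.4% of all. For these 4 lists the unmatched sites were below the share over all small structures, which are of all heights. Matched summits were below it too in the H2A.L.2-less lists but above it in the WT lists.

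Condensing nucleosomes gave another order against the background. In the H2A.L.2-less condensing list 26.6% ± 1.65 of unmatched and 32.2% ± 1.18 of matched summits had a nucleosome within 40 bp, and 23.9% of all WT small structures. The WT condensing list gave 27.3% ± 1.67 and 34.1% ± 1.09, with 23.7% of all. Unmatched summits were therefore less often at condensing nucleosomes than matched ones but more often than small structures in general. The equally high matched summits were above small structures in general as well. The difference between unmatched and matched summits was -5.61 points in the H2A.L.2-less and -6.82 points in the WT condensing list, and between -4.15 and -5.14 points in the 4 earlier lists. It was negative on 19 of 19 autosomes in each of the 6 lists. Fuzziness moved with it. With matched summits weighted to the fuzziness of the unmatched ones, the difference shrank to -0.55 in the H2A.L.2-less and -0.49 points in the WT spermatocyte list, and to -0.70 and -1.13 points in the round spermatid lists. In the condensing lists it was -2.60 and -4.10 points. This weighting was chosen after the data were seen.

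The shape of the nucleosome curves differed as well. WT condensing nucleosome summits around matched small structures had a relative density of 1.89 at 0 bp, 0.545 at 90 bp and 1.33 at 190 bp. Around unmatched ones the values were 1.16 at 0 bp, 0.757 at 90 bp and 1.16 at 190 bp, a flatter curve. In the H2A.L.2-less condensing list, unmatched summits gave 1.26, 0.812 and 1.16, and matched summits 1.67, 0.589 and 1.28. In WT round spermatids the density at 0 bp was 1.33 around unmatched and 1.68 around matched summits, and at 50 bp it was 1.27 around both.

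**Figure D4:**
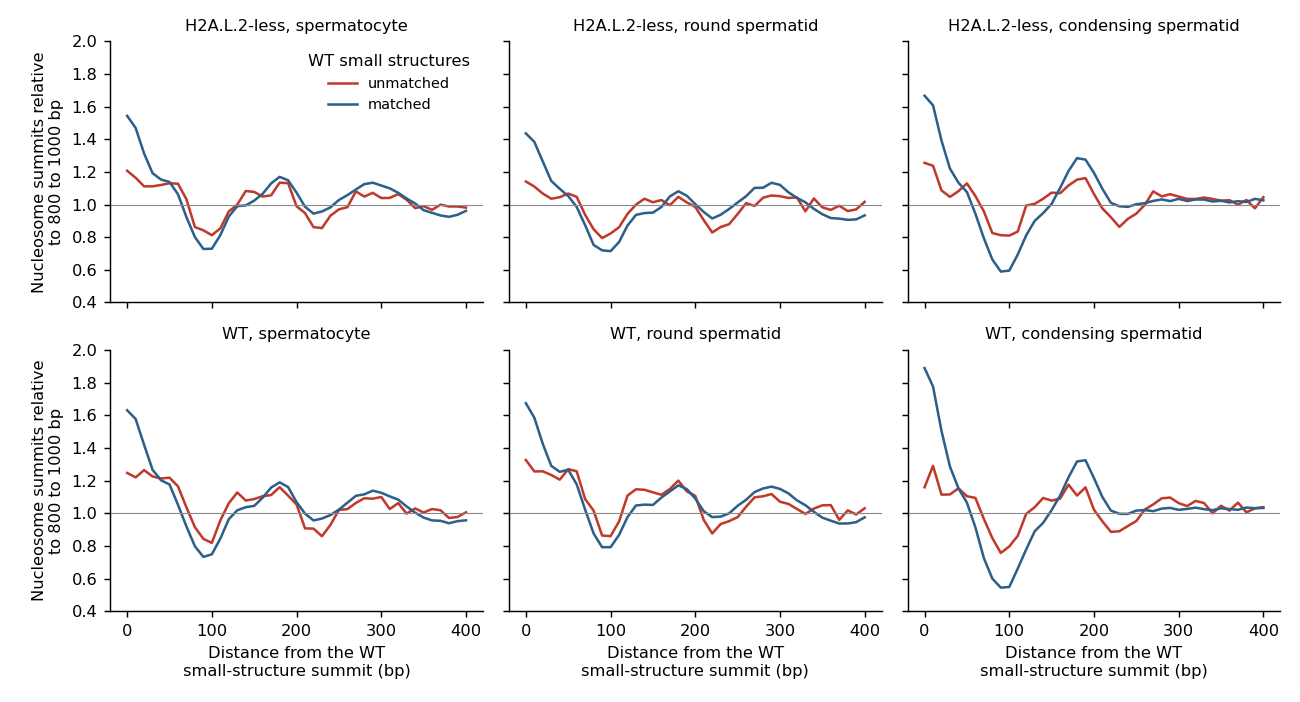
Density of nucleosome summits of the 6 nucleosome lists by distance in bp from unmatched (red) and matched (blue) WT small structures, relative to the density 800 to 1000 bp away, with H2A.L.2-less lists above and WT lists below. The curves of unmatched summits are lower at 0 bp and higher at 90 bp in each list.

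The place of the H2A.L.2-less small structure did not hold more nucleosomes than the WT site. Over the 28000 unmatched sites with a partner within 140 bp, a WT condensing nucleosome lay within 40 bp of the H2A.L.2-less summit at 25.5% and of the WT summit at 26.9%. The H2A.L.2-less condensing nucleosomes gave 24.3% and 26.3%, and the WT round spermatid nucleosomes 36.4% and 39.0%. Across all 6 lists, 21.6% of unmatched and 16.3% of matched summits had no nucleosome summit within 40 bp, and 0.972% and 1.99% had one in every list. At 27.2% of unmatched and 28.7% of matched summits, a round spermatid nucleosome summit of the WT list but none of the H2A.L.2-less list stood within 40 bp.

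WT nucleosomes at unmatched sites were themselves matched in the H2A.L.2-less list less often than those at matched sites, but their place relative to all WT nucleosomes differed by stage. Of the 11731 WT round spermatid nucleosomes within 40 bp of an unmatched summit, 33.7% had a H2A.L.2-less nucleosome within 40 bp (interval 32.8% to 34.5%), against 37.9% at matched summits and 43.6% of all WT round spermatid nucleosomes. In spermatocytes the share was 45.6% at unmatched and 49.5% at matched summits, with 51.5% of all, so at both earlier stages it lay below the share over all nucleosomes. In condensing spermatids it was 37.2% at unmatched and 41.6% at matched summits, both above the 30.9% of all WT condensing nucleosomes. The share at unmatched summits was below that at matched summits on 19 of 19 autosomes in round spermatids and on 17 of 19 at each of the other stages. These nucleosomes differed little in fuzziness, with medians of 54.5 at unmatched and 54.1 at matched summits in WT round spermatids.

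The 1825 sites with no H2A.L.2-less summit within 140 bp were unlike the rest. Their median fuzziness was 52.7 ± 0.876 (SD over 19 autosomes), against 56.5 ± 0.241 at 74 to 100 bp, 55.8 ± 0.329 beyond 100 and up to 140 bp and 52.8 ± 0.449 at matched summits. Their next WT summit was 160 bp away in the median, against 140 bp at matched summits, and they were lower, with a median value of 952 against 1012. Within 500 bp they had 3.60 H2A.L.2-less and 5.08 WT summits on average, a ratio of 0.708, whereas the ratio was 0.923 at matched summits. A ratio below that of matched summits follows in part from the zone without H2A.L.2-less summits that defines these sites. The partner that each matched summit must have raises the other ratio.

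Nucleosomes were not depleted at these 1825 sites. A WT spermatocyte nucleosome lay within 40 bp of 44.3% of them (interval 42.0% to 46.6%), against 40.5% of matched summits. For the H2A.L.2-less round spermatid list the shares were 26.5% (24.5% to 28.5%) and 24.4%. For the H2A.L.2-less spermatocyte list they were 33.3% (31.2% to 35.5%) and 31.8%, and for WT round spermatids 44.4% and 44.5%, differences within counting error. Condensing nucleosomes stood at 31.9% (29.8% to 34.1%) in the H2A.L.2-less and 32.8% (30.7% to 35.0%) in the WT list, against 32.2% and 34.1% of matched summits, again within counting error. The deficit of nucleosomes over all unmatched sites was thus carried by those with a H2A.L.2-less summit 74 to 140 bp away, and high summits with the nearest partner 41 to 73 bp away showed a smaller deficit of the same sign, with 30.2% in the WT condensing list.

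**Figure D5:**
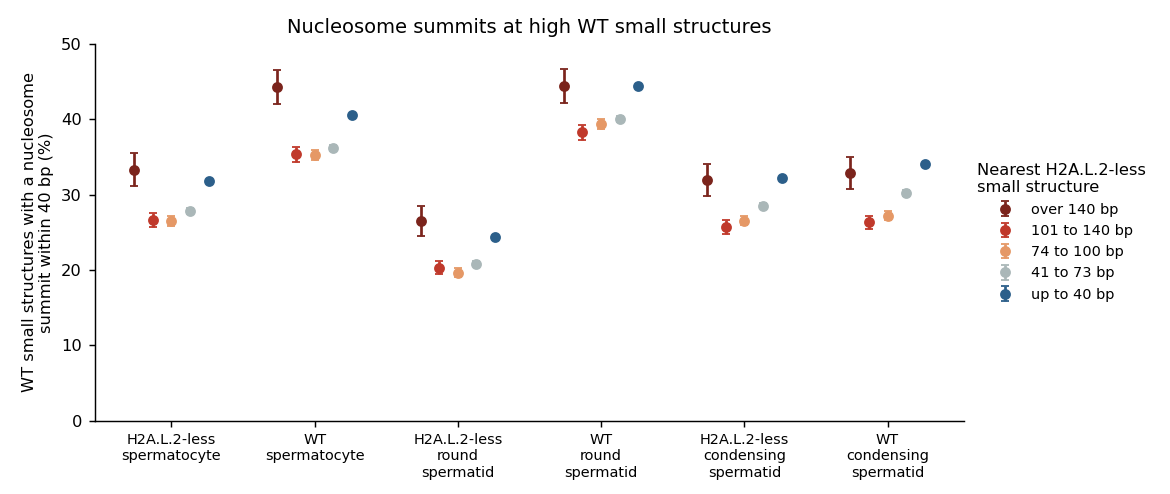
Share of high WT small structures with a nucleosome summit within 40 bp in each of the 6 lists, in percent with 95% Wilson intervals, by the distance to the nearest H2A.L.2-less small structure. Points for over 140 bp lie near or above those for matched summits (up to 40 bp), and points for 74 to 140 bp lie below both.

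The 29 sites more than 500 bp from any H2A.L.2-less small structure were the most isolated from that list. Their summit values ran from 884 over a median of 924 to 1220, and their fuzziness from 32.8 over 43.5 to 52.7, so all were sharper than the median unmatched summit. The number of WT small structures in their 100 kb windows ran from 58 over a median of 166 to 477, so some lay in dense windows, and the median number of H2A.L.2-less ones was 111. A nucleosome of at least 1 of the 6 lists was within 40 bp at 27 of the 29, where 21.6% of all unmatched and 16.3% of matched summits had none. A WT spermatocyte nucleosome was within 40 bp at 19 of the 29, against 35.8% of all unmatched and 40.5% of matched summits. On chromosome 2 at summit 89086231, with a value of 1220 and a fuzziness of 38.9, the nearest H2A.L.2-less small structure was 1280 bp away and the nearest WT one 1300 bp away. Nucleosome summits stood there 20 bp away in H2A.L.2-less and 40 bp away in WT condensing spermatids. On chromosome 8 at summit 17290681, with a value of 960, the nearest H2A.L.2-less small structure was 970 bp away, and nucleosomes of all 6 lists lay between 0 and 30 bp from the site. These 2 were chosen after their values were seen.

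Sites without a partner within 140 bp made up a median of 0.203% of high summits over 1395 windows of 1 Mb with at least 50 of them, and 601 windows had none. The largest share was 4.72% on chromosome 7 from 10000001 to 11000000 (5 of 106, interval 2.03% to 10.6%). Next came windows with 2 such sites each, on chromosome 11 from 65000001 (3.51%), chromosome 9 from 95000001 (3.39%), chromosome 8 from 56000001 (3.125%) and chromosome 7 from 114000001 (3.08%). The window just before the first one had 4 of 133 (3.01%). Windows were ranked after their values were seen. The window with the largest share held 655 H2A.L.2-less and 1054 WT small structures, and the one before it 748 and 1200. Over all autosomes the lists held 4047666 and 5291731.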

How the data were processed

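Fragments protected from MNase were sequenced from 8 libraries, 1 per group, with groups taken from the sample titles. Bowtie2 2.2.9, deepTools 2.2.4 and mm9 are named in the submitters' processing notes, and 3 sequencing runs were merged per library, per the series description. Nothing used here states the caller's version, thresholds or read filters. Summit values, as deposited, are a coverage signal in whole multiples of 4 with no visible scaling to depth, so heights are compared within a library only. The deposited fuzziness score is the authors' own. On the 10 bp grid lay 94.9% to 98.8% of the summits of each list.

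Autosomal summits were matched by nearest distance. Windows were fixed at 100 kb, and 0.5 was added to both numbers before a log2 ratio. Bands were deciles of the high summits, except for gaps. Weighting gave matched summits the distribution of the unmatched ones over 10 bands. Named sites are the 5 highest unmatched summits below the top 0.1%, at most 1 per 1 Mb, and named windows the 3 with the most unmatched summits and those with the highest and lowest shares among windows with at least 50 high summits. The sites and measures were chosen with earlier results of these data known. No mm9 sequence or annotation was used here, so no genes are placed and the gene for H2A.L.2 was not checked. The code was tested on simulated data. Python 3.11.15, numpy 2.4.6, pandas 2.3.3 and matplotlib 3.10.9 were used.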

Additional observations from a re-analysis of the deposited data

How the results depend on the processing

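No library has a replicate, and no paired analysis was possible because each group has 1 library. The depth of each library is unknown, and its part in which weak summits were listed was not tested. Of the 115 alternative values, 55 moved by less than the autosomal SD (medians) or the 95% interval (shares), 51 moved further with the same sign or to 0, and 9 changed sign. Differences are unmatched minus matched, in points for shares, and nucleosome lists follow the order spermatocyte, round, condensing, with H2A.L.2-less before WT at each stage. The cause of these changes was not tested.

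Sites with no H2A.L.2-less summit within 140 bp, 0.344% of high summits, gave 7 of the sign changes: fuzziness differed by -0.13, the gap by 20 bp, the WT density ratio was 0.986 and the log2 ratio difference -0.0133, and the nucleosome differences were 1.52, 3.76, 2.06, -0.0914, -0.34 and -1.27. Flanks differed by 0.960. Weighting by fuzziness, added after the data were seen, gave the other sign changes, 0.998 for the density ratio and -0.0058 for the log2 difference, and moved flanks to 3.53 and nucleosomes to -0.55, -0.49, -0.70, -1.13, -2.60 and -4.10.

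At the 95% quantile 4.79% of summits were unmatched, flanks differed by 4.72, H2A.L.2-less nucleosomes by -5.61, -4.75 and -6.85 over the 3 stages and WT condensing nucleosomes by -7.77. At the 80% quantile the share was 7.05%, the gap -20 bp and the nucleosome differences -2.76, -3.47, -2.66, -3.94, -4.35 and -5.22. With H2A.L.2-less summits at or above their lower quartile the share was 6.03%, fuzziness 3.12, the gap 0 bp, flanks 5.67 and the earlier nucleosomes -3.96, -4.08, -3.64 and -4.52. Matching within 20 bp moved flanks to 4.64. Weighting by height moved condensing nucleosomes to -4.89 and -5.91, and by height and density to -4.84 and -5.93, with fuzziness at 3.11 and H2A.L.2-less round nucleosomes at -3.58. Nucleosomes within 20 bp gave -3.96 (H2A.L.2-less spermatocyte), -3.12, -4.54, -4.52 and -6.10, and within 73 bp -4.28 and -3.08 (spermatocyte), -4.01 (WT round), -3.88 and -4.37 (condensing). Leaving out the highest 0.1% of positions or using windows of 1 Mb moved no value beyond these limits.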
